A study of Homo sapiens with 2 samples.

Results

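The genes of the proteasome were described through the alternative splicing events that the study listed for them in HEK293T cells, a line of human embryonic kidney cells that carries the SV40 large T antigen. The study had 2 libraries of polyadenylated RNA. Control cells were untreated, and the other cells were kept for 6 h in medium with 300 µg/mL of amiloride, a sodium channel blocker used as a diuretic that has also served as a small-molecule modifier of splicing. Each condition was 1 library of the same line, so no replicate error exists and a call compares the libraries, not the conditions. The deposited tables number the libraries without naming them, so the sign of each difference (first numbered library minus the second) could not be assigned to amiloride, and neither the inclusion level of each library nor its read depth is given here. Markers of HEK293T cells could not be checked, because the deposited values are for splicing events and not for gene expression.

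Members were all genes whose symbol consists of PSM, a letter from A to G and a number, in any of the 5 event tables. There were 43 genes of proteasome subunits, activators and assembly factors among 12254 gene symbols, with 746 of 159490 events. Of 48 genes on the list of known subunits and factors, PSMA8, PSMB8, PSMB11, PSMD5 and PSMG3 had no event. The pattern also matched 3 antisense RNA genes and PSMC3IP, which encodes a recombination factor and not a proteasome protein. These are given apart at the end.

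The proteasome is the protease complex that degrades proteins tagged with ubiquitin. Its core particle stacks rings of alpha subunits (PSMA genes), which gate the entrance, on rings of beta subunits (PSMB genes), some of which carry the protease sites. A regulatory particle binds the ends of the core. It is built from a ring of ATPases (PSMC genes) that unfold and thread the substrate and from non-ATPase subunits (most PSMD genes) that bind ubiquitin and remove it. Other caps, the activators PSME1 to PSME4, open the core without ubiquitin, PSMF1 is an inhibitor, and the PSMG genes with PSMD5, PSMD9 and PSMD10 encode assembly chaperones. The subunits are needed in fixed proportions, and most of the genes are expressed in all cell types.

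The 8 exons with the largest called differences between their direct neighbours, where that exon alone was skipped or included, are printed here. Each sequence starts with 20 bases of the upstream intron, continues with the exon in capitals and ends with 6 bases of the downstream intron, and it reads 5′ to 3′ on the strand of the gene in GRCh37. They show how short the exons are and which 3'SS and 5'SS define them. Exons are numbered along the canonical transcript.
PSME4 exon 4 (chr2:54167093-54167137, minus strand): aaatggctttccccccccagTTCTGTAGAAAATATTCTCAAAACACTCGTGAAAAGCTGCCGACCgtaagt
PSME4 exon 30 (chr2:54125438-54125491, minus strand): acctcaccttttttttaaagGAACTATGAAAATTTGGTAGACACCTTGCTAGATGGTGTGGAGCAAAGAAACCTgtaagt
PSME4 exon 16 (chr2:54150186-54150255, minus strand): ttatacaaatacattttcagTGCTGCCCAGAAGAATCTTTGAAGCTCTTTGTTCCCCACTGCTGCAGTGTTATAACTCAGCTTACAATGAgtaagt
PSME4 exon 34 (chr2:54122144-54122213, minus strand): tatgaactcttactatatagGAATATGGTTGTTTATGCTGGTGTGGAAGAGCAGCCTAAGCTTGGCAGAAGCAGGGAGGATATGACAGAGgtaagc
PSME4 exon 21 (chr2:54137212-54137267, minus strand): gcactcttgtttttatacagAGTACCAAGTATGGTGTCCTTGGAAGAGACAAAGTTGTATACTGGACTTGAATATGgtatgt
PSMA5 exon 2 (chr1:109964482-109964548, minus strand): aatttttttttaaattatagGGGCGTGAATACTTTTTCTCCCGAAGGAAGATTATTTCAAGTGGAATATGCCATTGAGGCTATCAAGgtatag
PSMD10 exon 2 (chrX:107331982-107332080, minus strand): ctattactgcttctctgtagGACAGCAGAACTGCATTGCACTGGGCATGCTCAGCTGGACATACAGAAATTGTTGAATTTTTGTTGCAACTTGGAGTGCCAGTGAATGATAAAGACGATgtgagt
PSMG1 exon 4 (chr21:40551850-40551912, minus strand): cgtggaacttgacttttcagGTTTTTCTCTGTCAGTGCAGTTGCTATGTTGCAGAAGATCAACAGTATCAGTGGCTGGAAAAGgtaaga

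The skipped-exon table listed 244 distinct exons of the 43 genes in 498 events. An exon was called when any of its events had a deposited FDR under 0.1. 91 of the 244 exons were called, a share of 37.3% (95% Wilson interval 31.5 to 43.5%), beside 35.8% of the 67154 exons of the whole table. The share of called proteasome exons was thus near that of the table. An exon with several events has more chances of a call. Of the 118 proteasome exons with exactly 1 event 22.9% were called, beside 25.3% of such exons in the table. Called exons came from 35 genes, and the FDR of 46 of them was listed as 0. The difference was positive in 85 of the 91 (93.4%), beside 95.7% of called exons over all genes.

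Differences of proteasome exons were more often small than those of the table. 33 of the 244 (13.5%) had a called event whose difference was 0.1 or more in size, beside 20.4% of all exons. Taking the event of lowest FDR for each called exon, the median size was 0.053 for proteasome exons and 0.116 over all genes. 31 of the 91 called proteasome exons (34.1%, interval 25.2 to 44.3%) reached 0.1, beside 55.6% of called exons of the table. These intervals cover counting error only, exons of 1 gene share their reads, and no test between gene families was possible with 1 library per condition.

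Ubiquitin-specific proteases, which remove ubiquitin, and cytosolic ribosomal proteins, which also form a large complex of fixed proportions, were set beside the proteasome. Of 502 exons of 46 ubiquitin-specific protease genes, 223 were called (44.4%), with a median size of 0.145. Of 198 exons of 73 ribosomal protein genes, 31 were called (15.7%), with a median size of 0.032. The proteasome lay between them in share and in size. The share of called exons that reached 0.1 was 64.1% for the ubiquitin-specific proteases and 12.9% for the ribosomal proteins, with intervals of 57.6 to 70.1% and 5.13 to 28.9%. The first lay above that of the proteasome and the second overlapped it.

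**Figure D1:**
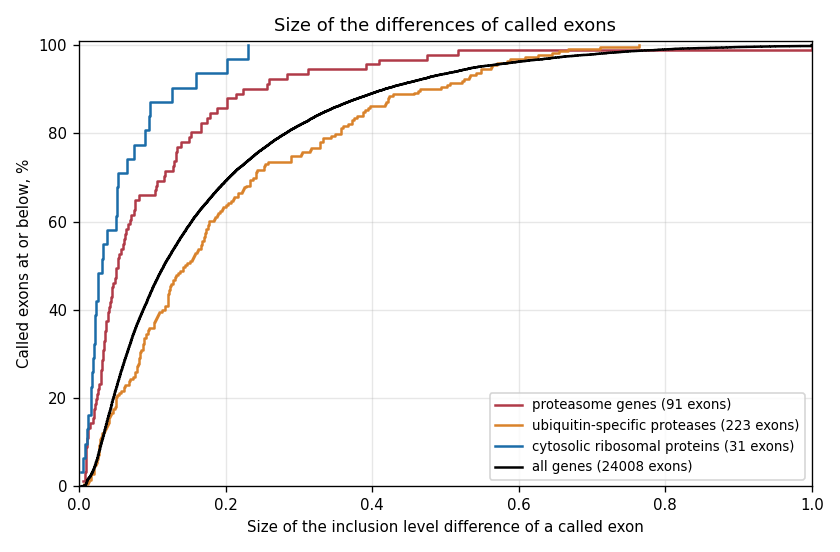
Cumulative share (%) of called exons against the size of their inclusion level difference, for proteasome genes, ubiquitin-specific proteases, cytosolic ribosomal proteins and all genes. The proteasome curve (median 0.053) runs between those of the ribosomal proteins (0.032) and of all genes (0.116), and the ubiquitin-specific proteases lie lowest (0.145).

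In some called exons the difference was not the same in events that joined different flanking exons. The reason was not tested. An event was classed as adjacent when both flanks were the neighbouring exons in the canonical transcript of the gene, and 200 events, 1 for each of 200 proteasome exons, were. This class was drawn up after the values had been seen. Of these events 59 were called (29.5%), beside 30.9% of adjacent events over all genes. All 59 called values were positive, beside 96.5% of called adjacent events over all genes. They ran from 0.008 to 0.284, with a median of 0.044, beside 0.088 over all genes. Negative differences occurred in 22 of the 200 adjacent events and none of them was called. The other 298 proteasome events had flanks further apart, in which case the exons between are absent from both forms, or used an exon end outside the canonical transcript. 72 of them were called (24.2%, beside 25.1% over all genes), from -1 to 0.608, and all 6 called proteasome events of negative sign were among them.

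Of the 81 called exons that had an adjacent event, 59 were called in it and 22 only with other flanks. In these 22 the adjacent event had a difference between -0.005 and 0.017. They were selected as not called in that event, so small values there follow in part from the selection. The same counts were not made over all genes. PSMD4 encodes a ubiquitin receptor of the regulatory particle. The difference of its exon 3 was 0.475 (FDR 2.2e-13) in the event that joined exon 1 to exon 8, and 0.009 (FDR 1.0) between exons 2 and 4. PSMA2 exon 2 had 0.392 (FDR listed as 0) between exons 1 and 4 and 0.006 (FDR 1.0) between exons 1 and 3. PSMC2 exon 2 was called in both, at 0.409 between exons 1 and 5 and at 0.065 between exons 1 and 3, with both FDR listed as 0. Of the 31 called exons whose event of lowest FDR reached 0.1, 13 also reached it in their adjacent event, 14 had a smaller adjacent difference and 4 had no adjacent event.

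In the alpha ring 18 of 36 exons of 7 genes were called (50.0%, interval 34.5 to 65.5%), but 23.1% of those with exactly 1 event. PSMA3 had 4 called exons, PSMA4 had 4 and PSMA5 had 4, while both listed exons of PSMA1 were not called. The 67-base exon 2 of PSMA5 had the largest adjacent difference of the ring, 0.153 (FDR listed as 0). Exon 4 of the same gene followed at 0.061. The lowest value of the ring was that of PSMA3 exon 7, at -0.517 (FDR 0.028) between exons 5 and 9, where the adjacent event had 0.000 (FDR 1.0).

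The beta ring had the smallest differences. 8 of 25 exons of 9 genes were called (32.0%, interval 17.2 to 51.6%, and 16.7% of those with exactly 1 event), and none of the 8 reached 0.1. Those with an FDR listed as 0 were PSMB6 exon 2 (0.076), PSMB4 exon 5 (0.053) and PSMB7 exon 5 (0.032). PSMB6 and PSMB7 encode subunits with protease sites. In PSMB5, the third constitutive catalytic subunit, the called exon was an 85-base exon outside the canonical transcript (chr14:23496954-23497038), with a difference of -0.006 (FDR 0.043). PSMB1, a structural subunit, had 4 listed exons and no call, and PSMB9 and PSMB10, catalytic subunits of the immunoproteasome, had 1 listed exon each and no call. The uncalled PSMB9 exon had a difference of 0.113, larger than any called one of the ring.

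Of the ATPases all 6 genes had a called exon, 19 of 46 exons in all (41.3%, interval 28.3 to 55.7%, and 17.6% of those with exactly 1 event). PSMC6 had the most, 8 of 12, in 17 called of 44 events. Between direct neighbours only its exons 2, 5, 6 and 11 were called, with the highest values at exon 6 (0.105) and exon 2 (0.076). In PSMC5, exon 7 was called at 0.107 and exon 5 at 0.132, the latter with 0.074 between its neighbours. PSMC1, PSMC3 and PSMC4 each had 1 called exon, at 0.045, 0.030 and 0.010. The lowest called value over all members was that of PSMC6 exon 4, at -1 (FDR 0.062) in the event from exon 1 to exon 6, the end of the scale. Its other 4 events lay at 0.001 or 0.002 and were not called. PSMC2 exon 3 had -0.175 (FDR 0.083) between exons 1 and 5 and 0.007 (FDR 1.0) between exons 2 and 5.

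Among the non-ATPase subunits 26 of 73 exons of 11 genes were called (35.6%, interval 25.6 to 47.1%, and 23.1% of those with exactly 1 event). PSMD1, the scaffold subunit of the base, had 5 called exons of 13. Its exons 16, 21 and 22 had 0.215, 0.202 and 0.224 in events whose flanks were not both direct neighbours (FDR listed as 0). Between direct neighbours exon 22 kept 0.109 and exons 16 and 21 had 0.007 and 0.011. PSMD13, a lid subunit, showed the same with exon 10, at 0.202 between exons 9 and 12 and 0.017 between exons 9 and 11. All 6 listed exons of PSMD4 were called, in 21 of 48 events, but between direct neighbours only exon 5 (0.034) and exon 7 (0.018) were. PSMD4 exon 4 reached 0.312 (FDR 0.00029) between exons 2 and 6 and had 0.002 between exons 3 and 5. PSMD11, a lid subunit, had 1 called exon of 6, its 36-base exon 11 at 0.116. PSMD14, the deubiquitinase of the lid, had 2 called exons of 6, at 0.044 and 0.024. PSMD6 had a called exon outside the canonical transcript (chr3:64008319-64008477) at -0.035 with an FDR listed as 0, and PSMD8 had 5 listed exons and no call.

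Among activators and the inhibitor 16 of 49 exons of 5 genes were called (32.7%, interval 21.2 to 46.6%). PSME4, which encodes the activator PA200, had the most listed exons of all members, 21, of which 8 were called. Its exon 4 had a difference of 0.284, exon 30 of 0.259, exon 16 of 0.256, exon 34 of 0.189, exon 21 of 0.166 and exon 25 of 0.117, all in adjacent events. They make up 6 of the 13 adjacent proteasome differences of at least 0.1. Exons 6 and 45 were called at 0.041 and 0.036. The other 13 exons of PSME4 lay between -0.061 and 0.023 in their event of lowest FDR, and the 10 of them with an adjacent event between -0.007 and 0.016 in it. Exon 37 of these also had an event at -1 (FDR 0.20) between exons 34 and 41, which was not called. The 8 called exons had a median length of 63.5 bases and the 13 others of 130.0. The median 5'SS scores of both were 7.36 and 7.39, and the called exons were spread from exon 4 to exon 45, with uncalled exons between them.

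**Figure D2:**
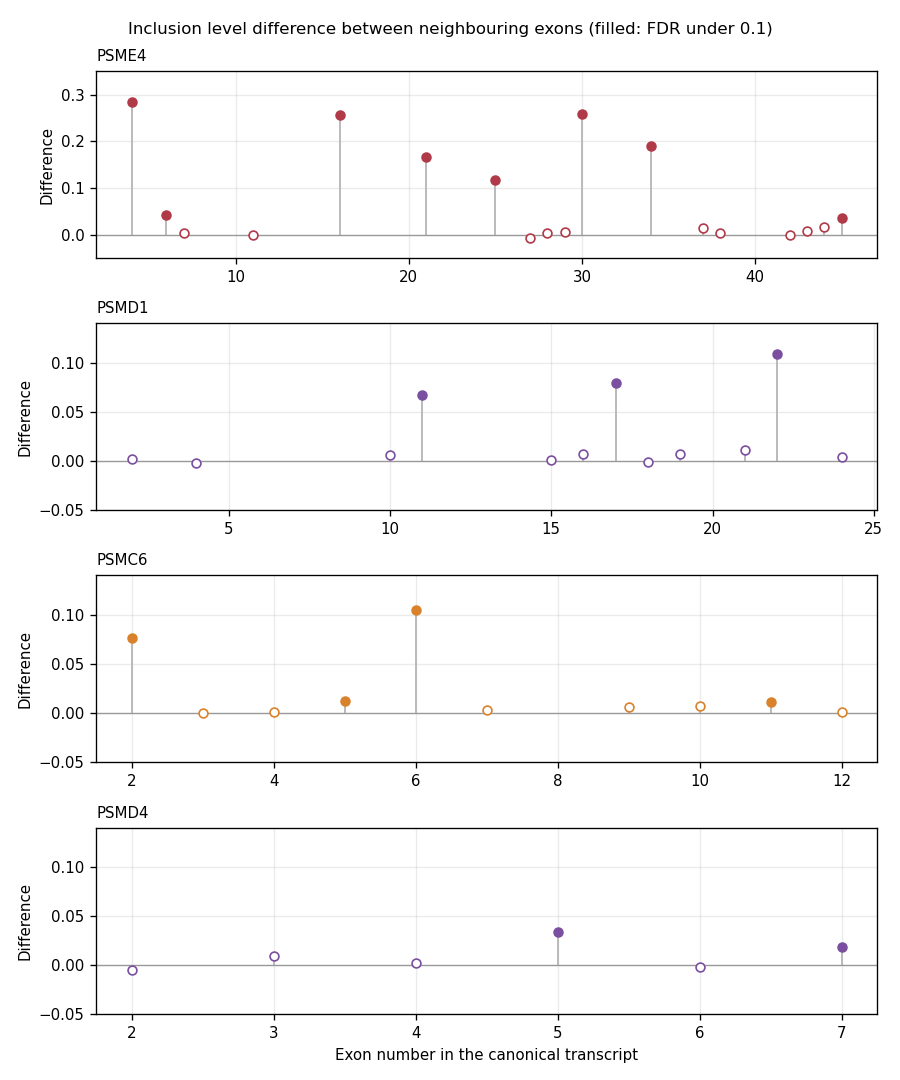
Inclusion level difference of the adjacent event (y axis, first minus second numbered library) along the exon number of PSME4, PSMD1, PSMC6 and PSMD4, with filled points for an FDR under 0.1 and a wider y range for PSME4. PSME4 has 6 exons from 0.117 to 0.284 among exons near 0, PSMD1 peaks at exon 22 (0.109), PSMC6 at exon 6 (0.105), and PSMD4 stays at or below 0.034.

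The other activators had smaller values in adjacent events. PSME2, which pairs with PSME1, had 3 called exons of 7. Exon 6 was called at 0.071, and exon 9 at 0.037 between its neighbours and at 0.103 (FDR 3.3e-06) between exons 7 and 10. PSME3 had 4 of 10, from -0.015 to 0.031, the negative one being a 164-base exon outside the canonical transcript (chr17:40985793-40985956, FDR 5.6e-10). None of 6 PSME1 exons was called. Exon 3 of the inhibitor PSMF1 was called at 0.082.

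The assembly chaperones had few listed exons, 15 in 5 genes, with 4 called (26.7%, interval 10.9 to 52.0%), all of at least 0.1. Exon 2 of PSMD10, an oncoprotein also named gankyrin, was called at 0.150 and was the only listed exon of its gene. PSMG1 exon 4 was called at 0.129 in its 63-base form and at 0.167 in a 48-base form that begins at a 3'SS further downstream. A 117-base exon of PSMG4 outside the canonical transcript (chr6:3264443-3264559) was called at 0.104. Neither PSMD9, with 4 exons, nor PSMG2, with 3, had a call.

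**Figure D3:**
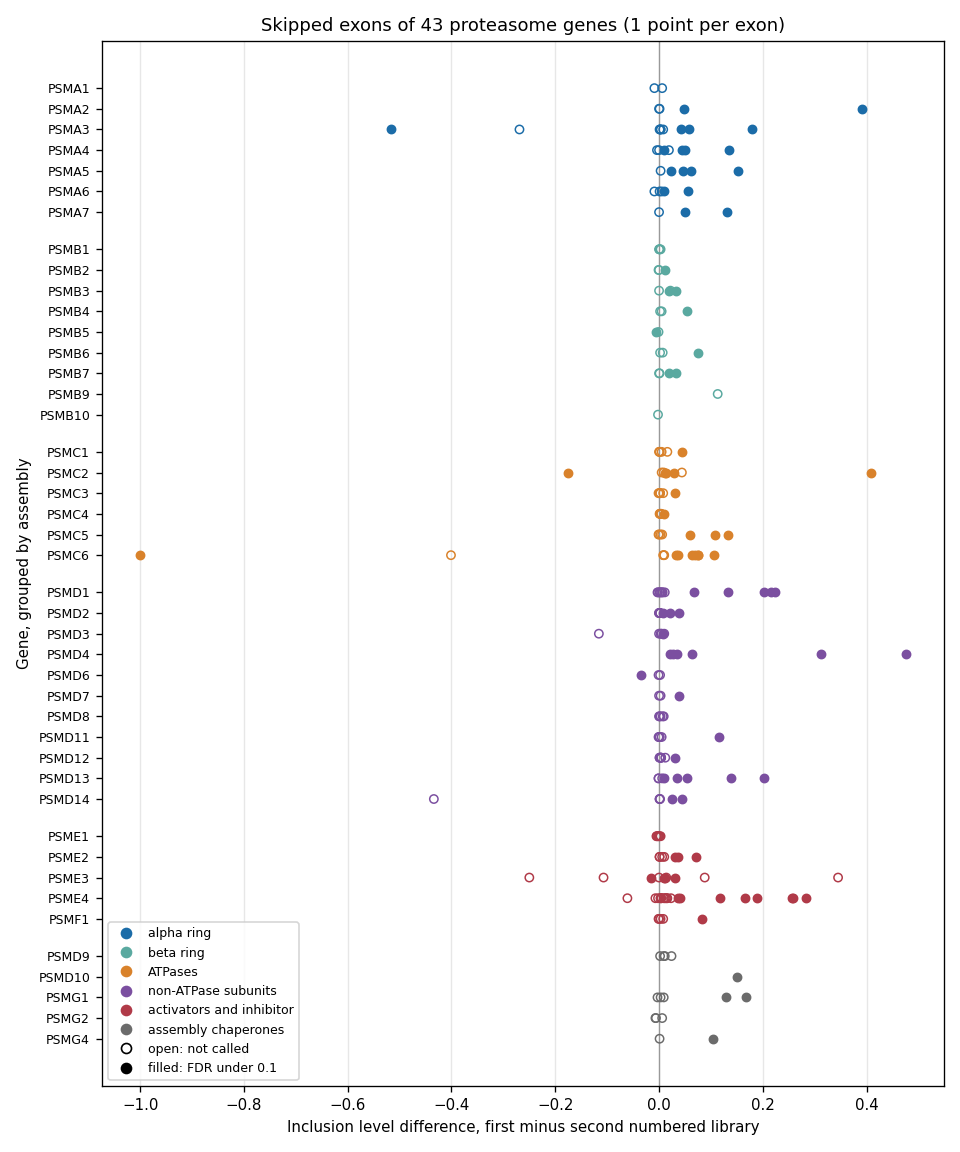
Inclusion level difference (first minus second numbered library) of each of the 244 listed exons, by gene, taken from the event of lowest FDR, with filled points for an FDR under 0.1. Called values run from -1 to 0.475, no beta ring exon is called above 0.076, and PSMA1, PSMB1, PSMB9, PSMB10, PSMD8, PSMD9, PSME1 and PSMG2 have no filled point.

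**Figure D4:**
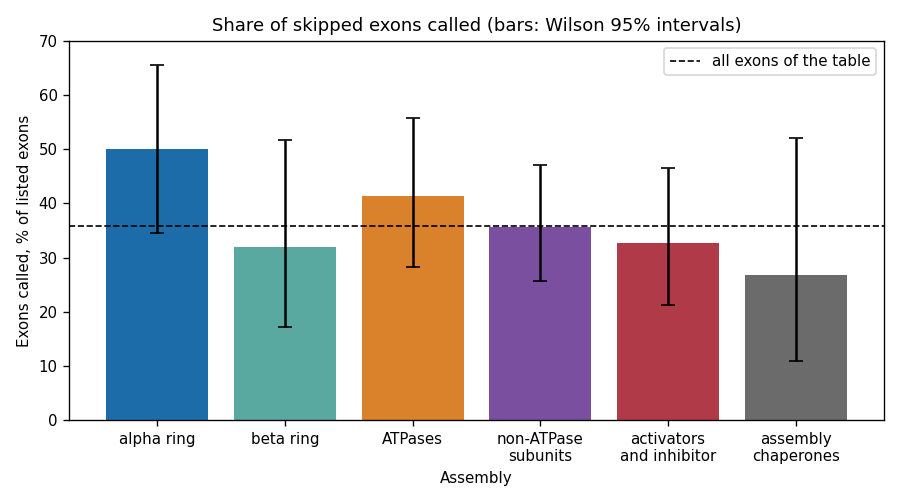
Share of listed skipped exons that were called in each assembly (%), with 95% Wilson intervals as error bars and the share over all exons of the table (35.8%) as a dashed line. The shares run from 26.7% (assembly chaperones) to 50.0% (alpha ring), and every interval includes the dashed line.

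Every assembly's interval included the share of the table, so none stood apart at this number of exons. With base and lid of the regulatory particle apart, 33 of 74 base exons (44.6%, interval 33.8 to 55.9%) and 12 of 45 lid exons (26.7%, interval 16.0 to 41.0%) were called, and 26 of 61 core exons (42.6%, interval 31.0 to 55.1%). These intervals overlap, and the shares were not set apart by the number of events of an exon. The base includes PSMD4, whose 6 exons were all called and had 48 events.

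The tables held only part of the genes. The canonical transcripts of the 43 genes have 358 internal exons, of which 230 were listed, 84 were called and 128 had no event. 14 further listed exons were another form, 8 of them overlapping a canonical exon with a different end. The listed exons were almost all coding (233 of 244). Of the 91 called exons 32 had a length that is a multiple of 3 (35.2%) and 59 did not, so that skipping any of the 59 alone would shift the reading frame where the exon is wholly coding. Among the exons not called 68 of 153 had such a length (44.4%). Over all genes the shares were 36.3% of called exons and 40.2% of the others. Among called exons of at least 0.1 in the event of lowest FDR the share was 51.6% (16 of 31), above that of exons not called.

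Called proteasome exons were shorter than the others, with a median of 87.0 bases against 105.0. Over the whole table the medians were 102.0 and 123.0. When the 200 exons with an adjacent event were divided by length, 27 of the 66 shortest (26 to 78 bases) were called in that event, 20 of the 67 in the middle and 12 of the 67 longest (115 to 307 bases). The 13 adjacent differences of at least 0.1 fell as 9, 3 and 1. However, 6 of the 13 came from PSME4 alone, and all 6 were among the shortest exons, so this split rests largely on 1 gene. Over these 200 exons Spearman's rho and Pearson's r of length with the adjacent difference were both -0.25. They describe exons that share 2 libraries and, within a gene, their reads. Neither the division by length nor this correlation was computed over all genes, so neither is shown to be particular to proteasome exons.

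Splice site scores, the fit of a site to annotated human sites on a log2 scale, differed little at the 5'SS and more at the 3'SS. The median 5'SS score was 8.06 for called and 8.35 for other proteasome exons, and the median 3'SS score was 8.81 and 9.79. Over the table the medians were 7.96 and 8.16 at the 5'SS, and 9.04 and 9.30 at the 3'SS. The 3'SS order did not hold for large differences, since called proteasome exons of at least 0.1 had a median of 10.09. Among the sequences above, PSME4 exon 4 has a 5'SS score of 5.02 and PSME4 exon 16 a 3'SS score of 3.50, whereas PSMG1 exon 4 has a 5'SS score of 11.16. The last exon base was G in 75.8% of called and 75.2% of other proteasome exons. All but 1 of the 244 exons lay between AG and GT. The exception, of PSME1 (chr14:24607683-24607777), was not called.

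The other tables held fewer proteasome events. Of 229 events of mutually exclusive exons in 36 genes, 107 were called (46.7%, interval 40.4 to 53.2%), beside 39.3% over that table. Their median size was 0.037, and 6 reached 0.1. Of the 229 events 157 paired consecutive exons of the canonical transcript, which holds both exons together. PSMD4 had 16 called of 30, PSMC6 had 12 of 29, PSME3 had 12 of 28 and PSMA4 had 11 of 16. The largest in size were PSMA5 exons 2 and 3 (0.210), PSME4 exons 28 and 29 (0.188) and PSMD11 exons 10 and 11 (-0.172). Which exon of a pair the sign refers to was not resolved. Of the 107 called events 64.5% held an exon that was also a called skipped exon, as did 66.4% of the 122 events not called.

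No proteasome event was called in the tables of alternative 5'SS (0 of 5, beside 28.2% over the table) and 3'SS (0 of 10, beside 23.0%). With so few events, Wilson intervals reach up to 43.4% and 27.8%. The 5'SS pairs belonged to PSME1, PSMD10, PSMA4, PSMA6 and PSMD13, and the lowest FDR was 0.12 (PSME1, sites 8 bases apart, 0.021). The 3'SS pairs within a short distance are shown next because the skipped exon was called from both sites in PSMG1, PSMA3 and PSME3. The stretch between the sites is in capitals, with 20 bases of intron before it and 10 of exon after it.
PSMG1 (chr21:40551888-40551932, minus strand): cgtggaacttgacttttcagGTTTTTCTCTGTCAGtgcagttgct
PSMA3 (chr14:58727646-58727696, plus strand): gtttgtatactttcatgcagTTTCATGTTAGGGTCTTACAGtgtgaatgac
PSME3 (chr17:40990689-40990757, plus strand): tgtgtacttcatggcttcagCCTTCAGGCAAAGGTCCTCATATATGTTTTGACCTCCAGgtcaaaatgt
The sites of PSMG1 lie 15 bases apart, those of PSMA3 21 and those of PSME3 39, all multiples of 3. The choice between them differed by -0.007 (FDR 0.30) in PSMG1 and by 0.001 (FDR 1.0) in PSMA3. In PSME3 it was listed in 2 events, at 0.085 (FDR 0.47) and -0.003 (FDR 1.0). The skipped exon itself was called at 0.129 (63 bases) and 0.167 (48 bases) in PSMG1, at 0.058 (73 bases) and 0.179 (52 bases) in PSMA3 exon 6, and at 0.009 (69 bases) and 0.031 (108 bases) in PSME3 exon 7. The shorter form had the larger difference in PSMG1 and PSMA3 and the smaller one in PSME3. In these events both forms of an exon had the same flanking exons and overlap, so their calls are not independent.

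Retained intron events of proteasome genes numbered 4, of which 2 were called, beside 48.2% over that table. The 121-base intron of PSMD11 (chr17:30807650-30807770) had 0.030 (FDR 0.00017). The 85-base intron after exon 3 of PSMD13 (chr11:244076-244160) had -0.014 (FDR 0.00044). Both events of PSME1 were not called, at -0.137 (FDR 0.15) and -0.001 (FDR 0.99). They concern the same intron, taken from 5'SS that lie 8 bases apart. Over all skipped-exon events the called share was 27.5%, and that of the 498 proteasome events 26.3%.

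Genes that work with the proteasome but carry other symbols were taken from a list of 28 symbols, of which 23 had listed exons. Of their 150 exons 65 were called (43.3%, interval 35.7 to 51.3%), 64 with a positive difference, at a median size of 0.104. Over all genes 35.8% of exons were called, 95.7% of these with a positive difference, at a median size of 0.116. The ubiquitin receptor ADRM1, which docks on PSMD1, had 5 of 7 called, at most 0.196. The proteasome-bound ubiquitin ligase UBE3C had 12 of 16, at most 0.261, and KIAA0368 (ECM29), which tethers core and regulatory particle, 7 of 17, at most 0.299. The deubiquitinases UCHL5 and USP14 had 2 of 11 and 3 of 5. POMP, the chaperone of core assembly, had 1 of 3, at 0.015. The transcription factor NFE2L1, which induces proteasome genes, had its only listed exon called at 0.142, and its activators DDI2 and NGLY1 had 2 of 5 and 5 of 6, the latter up to 0.549. VCP, the unfoldase that delivers substrates, had 1 of 4, at 0.014, and its cofactor NPLOC4 6 of 15.

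The genes matched by symbol alone were few. The antisense RNA gene PSMA3-AS1 had called skipped exons at 0.145 and 0.116 and a called 3'SS pair at 0.239 (FDR 0.0028). PSMD6-AS2 had a called exon at 0.632, and PSMG3-AS1 a called retained intron at 0.615 (FDR 0.019). Whether the counting used strand is not given in the sources used here, so reads of these RNAs and of genes on the other strand may not have been told apart. PSMC3IP had 2 of 7 skipped exons called, at 0.050 and 0.026. All 4 of its alternative 5'SS events were called, from -0.120 to 0.242, in the table in which no proteasome event was.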

How the data were processed

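RNA-seq of polyadenylated RNA from 1 control library and 1 library of amiloride-treated HEK293T cells was aligned by the authors, with STAR 2.5.1 and the build hg19/GRCh37 in the submitters' processing notes, and compared with rMATS (version not given in the sources used here). The authors deposited 5 tables of events, each with a p-value, an FDR (the adjusted p-value) and an inclusion level difference. These deposited values are the authors' own comparison and were used as they stand, with no new test, since the inclusion levels cannot be assigned to a condition: 30 columns of single libraries, numbered and not named, were not used. In 100% of skipped-exon events the effective length of the inclusion form exceeded that of the skipping form by the exon length, so reads on exon bodies counted.

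Events were grouped into exons by chromosome, strand, start and end (1-based). An exon was called when any event had an FDR under 0.1, the threshold the study states for its knockdowns of RNA-binding proteins, since none is stated for amiloride, and its value is that of the event of lowest FDR (at a tie, the larger in size). An FDR of 0 is given as listed. The 92 exons of the table with 2 gene symbols took the one that sorts first. Exons were numbered along Ensembl canonical transcripts of GENCODE release 44 lifted to GRCh37. Splice site scores sum the log2 ratio of base frequency to equal use of all bases, over 9 bases (5'SS) or 23 bases (3'SS). Frequencies, with a pseudocount of 0.5, came from 300873 and 300290 annotated sites respectively. The grouping of events into exons, the exon calls and the intervals were tested on simulated data, and the other steps were not. Members, gene lists and comparison families were chosen with earlier results of these data known. In each assembly the 3 called exons of lowest FDR and the 2 largest in size were named, with every called exon of negative sign, every gene without a call and every called event of the splice site and intron tables. Other exons named were chosen after their values were seen.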

Additional observations from a re-analysis of the deposited data

How the results depend on the processing

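Of 74 alternatives over 24 results, 54 stayed within the limit set for a change (a count within 1.5 times, a share or median within its 95% interval), 18 moved and 2 reversed. Part of the 54 could hardly have moved. The 0 calls among alternative 5'SS and 3'SS events stay 0 at any stricter threshold. Keeping only exons between AG and GT removes 1 of the 244. Asking for a difference of at least 0.1 as well as an FDR under 0.1 left 33 of 91 exons, and by assembly 6 in the alpha ring, 0 in the beta ring, 6 in the ATPases, 10 in the non-ATPase subunits and 7 in the activators and inhibitor. It left 37 skipped-exon events, 6 of mutually exclusive exons and 0 retained introns. An FDR under 0.01 left 82 exons (33.6%, beside 26.9% of all exons), and an FDR under 0.05 left 88 (36.1%, beside 32.3%). Among the 118 exons with exactly 1 event 22.9% were called, beside 25.3% of such exons over the table, with a median difference of 0.002 in place of 0.006, and by assembly 23.1% in the alpha ring, 16.7% in the beta ring, 17.6% in the ATPases and 23.1% in the non-ATPase subunits. Of exons with more events 50.8% were called, beside 51.4% over the table. Counting only the adjacent event, an alternative added after the data had been seen, gave 29.5% over all members and 23.4% in the non-ATPase subunits. With the minimum size of 0.1 the length difference of called from other exons went from -18.0 to -38.0 bases, and the frame difference (-9.3 to 7.1 percentage points) and the 3'SS score difference (-0.98 to 0.33) changed sign. The cause was not tested.

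No paired analysis was possible because neither the control nor the amiloride cells were sequenced more than once, so the groups share no set of replicate numbers. Leaving out a replicate was likewise not possible. The reads per library were not used here, so the depth behind each value, such as a difference of -1 or a large one between distant exons, is not given, and what low coverage hides cannot be stated.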
